A study of Mus musculus with 2 samples.

Results

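A set of 10 receptors that tune the response of macrophages and other myeloid cells was followed in RNA sequencing of sorted tumor cells. The genes were taken by symbol, each gave 1 locus in the files, and they are 10 of the 22886 genes listed. They are the triggering receptors Trem1, Trem2 and Trem3, the Trem-like receptors Treml2 and Treml4, the sialic acid-binding lectins Siglec1, Cd33 and Siglece, and the immunoglobulin-like receptors Sirpa and Pirb. The series holds 2 libraries of polyA RNA from FACS-sorted cells, called aerobic by the labels, of subcutaneous LLC tumors. LLC, the Lewis lung carcinoma, is a transplantable mouse lung tumor. Both libraries came from wild type C57BL/6 mice, 1 from vehicle injection and 1 from clodronate injection. Clodronate is a bisphosphonate that kills phagocytes which take it up. The labels give no dose, time, sex, age or number of mice, and no markers of the sort. Their growth protocol describes EML cells, a blood progenitor line, which conflicts with the tumor named elsewhere. With 1 library per condition there is no spread between samples, so the values below are levels in these libraries and no p-value is given.

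Trem receptors are short cell-surface proteins with 1 immunoglobulin domain and no signaling motif of their own. Trem1, Trem2 and Trem3 signal through the adaptor encoded by Tyrobp, which carries an activating tyrosine motif read by the kinase Syk. Siglecs bind sialic acid, the sugar that caps many glycans of the body's own cells, and several of them, like Sirpa and Pirb, carry inhibitory tyrosine motifs that recruit the phosphatases encoded by Ptpn6 and Ptpn11. Macrophages of tumors commonly carry both kinds of receptor.

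The markers of the sorted cells were those of macrophages. Each of 12 macrophage markers reached 10 RPKM, a unit of reads scaled to transcript length and library size, in both libraries, and Lyz2, a lysozyme of myeloid cells, had 10534 RPKM with vehicle and 11189 RPKM with clodronate. The 12 genes summed to 22975 and 21964 RPKM. Of the monocyte list 6 of 8 genes had at least 10 RPKM in both libraries, with sums of 293 and 430 RPKM. Of the 12 neutrophil genes found 7 were listed at 0 in both, S100a9, Elane, Mpo and Ltf among them, and the list summed to 51.8 and 52.8 RPKM. Csf3r with 26.4 and 19.3 RPKM and S100a8 with 12.7 and 23.1 RPKM reached 10 RPKM in both. The B cell list summed to 2.99 and 2.54 RPKM, the T and NK cell list to 11.1 and 9.76 RPKM, the dendritic cell list to 7.25 and 13.5 RPKM, and the mast cell and basophil list to 83.0 and 70.2 RPKM. Cd4 alone gave 10.3 and 7.72 RPKM of the T and NK cell sums, and Cd209a alone 1.25 and 8.68 RPKM of the dendritic cell sums. Of the 3 dendritic cell genes that passed a filter of a mean of at least 1 RPKM, 2 were higher with clodronate and 1 lower. The epithelial list summed to 12.8 and 11.0 RPKM with Epcam listed at 0 in both. Whether LLC cells carry these markers was not tested, so the list does not measure the share of carcinoma cells. The fibroblast list had 154 RPKM with vehicle and 75.4 RPKM with clodronate. The platelet list had 459 and 642 RPKM, of which Pf4 alone gave 437 and 600 RPKM, while Gp9 was listed at 0 in both. The endothelial list had 2.37 and 7.46 RPKM and the erythroid list 0.218 and 1.54 RPKM. In such bulk libraries, fewer cells of a type and less RNA per cell cannot be told apart.

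All 10 receptors were present in both libraries, over a wide range of levels. Trem2 had the highest value in each, 444 RPKM with vehicle and 349 RPKM with clodronate, which placed it 0.913% and 1.14% from the top of all genes. Sirpa followed with 264 and 321 RPKM. These 2 genes made up 60.4% of the summed RPKM of the 10 receptors in the vehicle library and 60.6% in the clodronate library, and the sum itself was 1173 and 1106 RPKM. At the other end Treml2 had 1.803 RPKM and was the lowest in the vehicle library, and Trem3 had 2.14 RPKM and was the lowest in the clodronate library. Cd33 stood at position 3 of the 10 in the vehicle library and at position 5 in the clodronate library, whereas Siglec1 went from position 6 to position 3. The error of this order cannot be estimated from 1 library per condition. Trem2 over Sirpa differed by 1.68-fold in the vehicle and by 1.09-fold in the clodronate library.

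**Figure D1:**
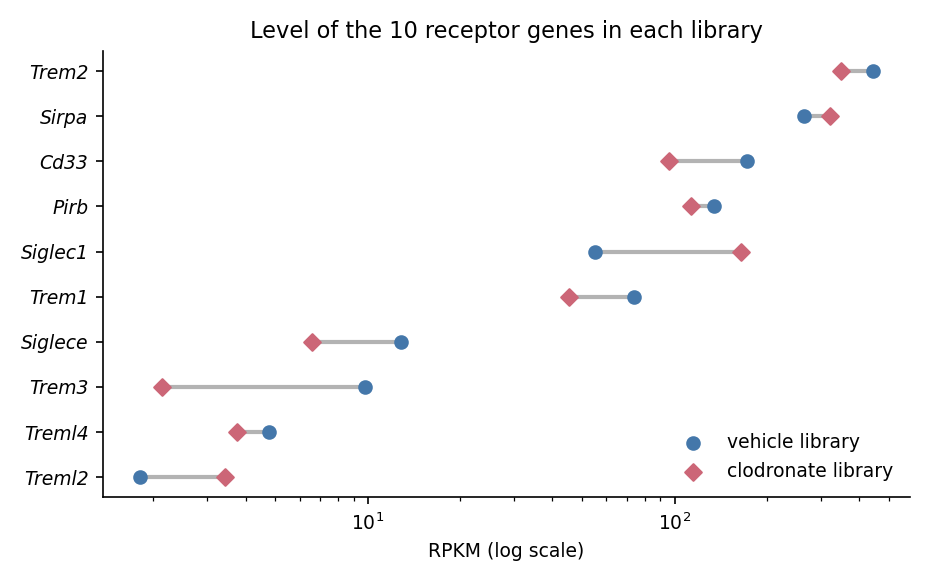
RPKM of each receptor gene on a log scale in the vehicle library (circles) and the clodronate library (diamonds), with 1 library each and lines joining the values of a gene. Siglec1, Sirpa and Treml2 lie farther right in the clodronate library and the other 7 genes farther left, with Trem3 (9.82 and 2.14 RPKM) and Siglec1 (55.3 and 165 RPKM) the farthest apart.

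The difference between the libraries was measured as the log2 ratio of clodronate RPKM + 1 over vehicle RPKM + 1, a scale that understates the change of low genes. All 10 receptors passed the filter of a mean of at least 1 RPKM, as did 10982 genes in all. Of the 10 receptors 3 had a higher and 7 a lower value in the clodronate library, and their median log2 ratio was -0.31. Over all genes kept, 51.6% were higher and the median log2 ratio was 0.019. Of the receptors 1 was at least 3-fold lower, Trem3, against 2.32% of all genes kept. None was at least 3-fold higher, against 2.86% of all genes kept, and Siglec1 came nearest at 2.95-fold. At 2-fold there was 1 receptor on each side, Siglec1 and Trem3, against 6.95% of the genes kept on the higher and 6.77% on the lower side. With 10 genes, counts of 0 or 1 do not set the receptors apart from other genes.

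**Figure D2:**
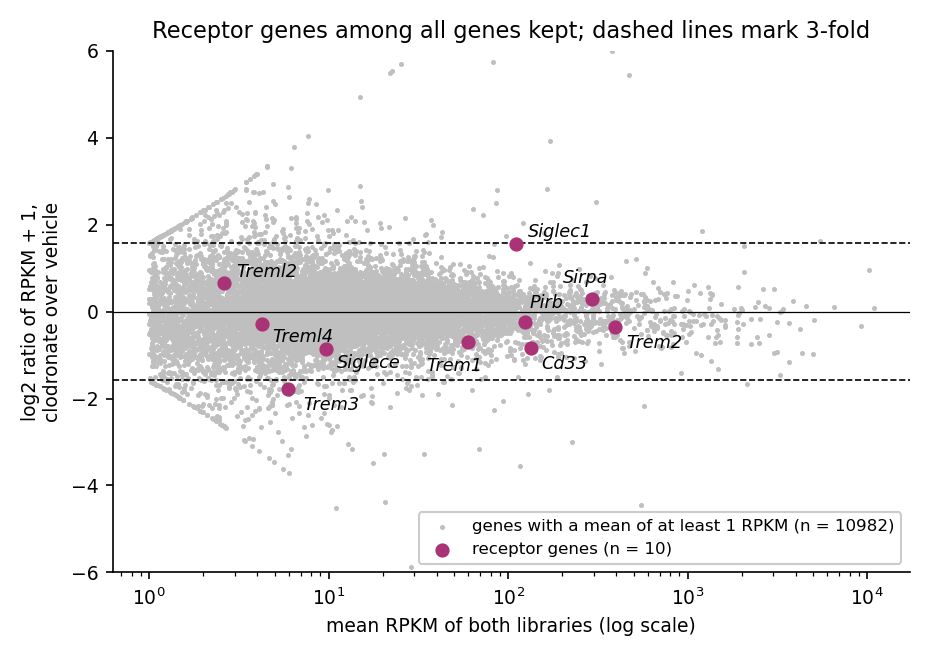
Log2 ratio of RPKM + 1, clodronate over vehicle, against the mean RPKM of both libraries on a log scale, for 10982 genes (grey) and the 10 receptors (purple), with dashed lines at 3-fold. 38 genes lie outside the plotted range. Trem3 lies below the lower line and Siglec1 just under the upper line, and the other 8 receptors lie between the lines.

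The 5 Trem and Trem-like receptors are neighbours on chromosome 17. In the coordinates of the files, for which the labels name the build mm9, the loci are Trem1 at chr17:48371902-48386091, Trem3 at chr17:48386943-48398207, Treml4 at chr17:48403660-48414724, Treml2 at chr17:48439362-48451859 and Trem2 at chr17:48485725-48491598. Together they span 119.7 kb. They did not share a direction or a level.

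Trem2 binds lipids, lipoproteins and remnants of dead cells and supports uptake and survival in macrophages. It had 444 RPKM with vehicle and 349 RPKM with clodronate, a log2 ratio of -0.35. Among the 322 genes kept whose mean lay within 2-fold of that of Trem2, 25.5% had a ratio at least as low. Many genes of its level thus differed by as much between these libraries. Apoe, which encodes a lipoprotein component that binds Trem2, had 4824 and 3630 RPKM, with a log2 ratio of -0.41.

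Trem1 amplifies inflammatory responses of monocytes, macrophages and neutrophils. It had 73.7 RPKM with vehicle and 45.2 RPKM with clodronate, a log2 ratio of -0.69, and 7.44% of the 1935 genes of like level were at least as low. The level of Trem2 was 6.02 times that of Trem1 in the vehicle library and 7.71 times in the clodronate library. Csf3r, which encodes the granulocyte colony-stimulating factor receptor and stands in the neutrophil list, had 26.4 and 19.3 RPKM, whereas S100a8 of the same list had 12.7 and 23.1 RPKM and Mmp9 5.66 and 6.87 RPKM. Of the 5 genes of that list that passed the filter 2 were higher and 3 lower, with a median log2 ratio of -0.43. The list as a whole had nearly equal sums, given above, and its part in the Trem1 values was not tested.

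Trem3, a Tyrobp-coupled receptor that is functional in mice, had the lowest ratio of the 10. It had 9.82 RPKM with vehicle and 2.14 RPKM with clodronate. The log2 ratio was -1.79, or 3.45-fold lower on the scale of RPKM + 1, and 1.96% of the 3828 genes of like level were at least as low. The values of low loci fell in steps that give the worth of 1 sequenced fragment, and by these the Trem3 values rest on an estimated 126 fragments in the vehicle and 22 in the clodronate library. Once trends with GC content and length were removed, the log2 ratio of Trem3 was -1.50 and it no longer reached 3-fold. Its direct neighbour Trem1 had the smaller difference given above.

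Treml4 binds dying cells and also works through Tyrobp. It had 4.75 and 3.76 RPKM, from an estimated 56 and 36 fragments. The log2 ratio was -0.27, and -0.055 once trends with GC content and length were removed. Treml2 is found on B cells as well as on myeloid cells. It had 1.803 RPKM with vehicle and 3.43 RPKM with clodronate, from an estimated 49 and 75 fragments, and a log2 ratio of 0.66. Of these 5 receptors Treml2 was the 1 with a higher value in the clodronate library, and 22.0% of the 2734 genes of like level were at least as high. The B cell list summed to 2.99 and 2.54 RPKM, as given above, and its part in the Treml2 values was not tested.

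Of the other Trem genes listed for comparison, 2 of 4 were found and 1 passed the filter. Treml1, a gene known from platelets that lies beyond Trem2, had 0.428 RPKM with vehicle and 5.94 RPKM with clodronate, a log2 ratio of 2.28. Among the platelet markers Ppbp had 21.3 and 40.4 RPKM and Pf4 437 and 600 RPKM, while Gp9 was listed at 0 in both, and the part of platelet RNA in the Treml1 values was not tested. The loci B430306N03Rik and Nfya of this stretch are named for their place, after their values were seen. B430306N03Rik, between Treml2 and Trem2, had 6.46 and 11.0 RPKM, and Nfya, next after Treml1, had 41.1 and 34.6 RPKM.

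**Figure D3:**
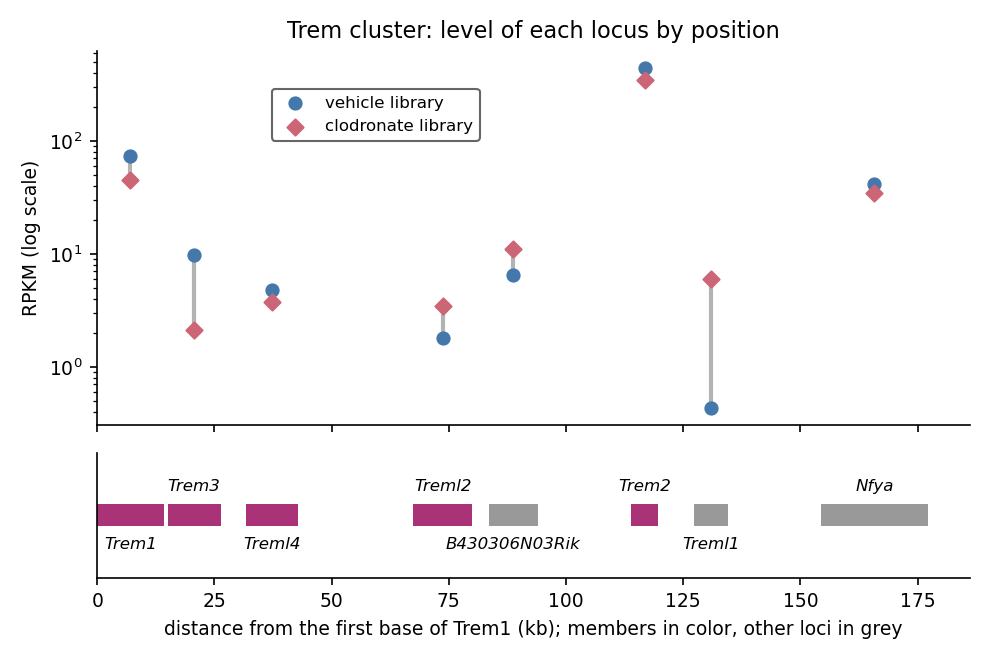
RPKM on a log scale (top) of the 8 loci from Trem1 to Nfya in the vehicle library (circles) and the clodronate library (diamonds), over the extent of each locus (bottom) as distance in kb from the first base of Trem1. Trem2 stands highest at 444 and 349 RPKM, Trem1 follows at the other end of the cluster, and the loci between them lie near or below 11.0 RPKM.

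The Siglecs went in both directions. Siglec1, also called sialoadhesin, is a long adhesion receptor of tissue macrophages that lacks inhibitory motifs and is known to be induced by type I interferon. Its locus is chr2:130894955-130912501. It had 55.3 RPKM with vehicle and 165 RPKM with clodronate, a log2 ratio of 1.56, with 97.0% of the genes kept below it. Among the 1062 genes of like level 2.73% were at least as high. The values rest on an estimated 4549 and 11029 fragments. With the trends of GC content and length removed, the log2 ratio was 1.23. The summed monocyte markers, 293 and 430 RPKM, were also higher with clodronate. Single macrophage markers went both ways, with 22.5 and 42.3 RPKM for Fcgr1, 174 and 289 RPKM for Mrc1 and 3984 and 2043 RPKM for C1qc. The part of either list in the Siglec1 values was not tested.

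Cd33 and Siglece lie near each other on chromosome 7, at chr7:50782825-50788541 and chr7:50906439-50915531, and both were lower in the clodronate library. Cd33, a sialic acid receptor of myeloid cells whose mouse form differs from the human one in its signaling part, had 172 and 95.9 RPKM and a log2 ratio of -0.84. Siglece, the main inhibitory Siglec of mouse neutrophils and monocytes, had 12.8 and 6.59 RPKM and a log2 ratio of -0.87, from an estimated 306 and 127 fragments. At least as low were 6.23% of the 867 genes of the level of Cd33 and 7.84% of the 4232 genes of the level of Siglece. The order of Cd33 and Siglec1 was thereby reversed. Cd33 was 3.12 times Siglec1 in the vehicle library, and Siglec1 was 1.72 times Cd33 in the clodronate library. The summed RPKM of all 3 was 240 and 268.

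The remaining genes of the Siglec family were low or listed at 0. Of 6 such genes 1 passed the filter, Cd22, an inhibitory receptor of B cells, with 5.08 and 2.88 RPKM and a log2 ratio of -0.65. Siglecg, Siglecf and Siglec15 were listed at 0 in both libraries. Siglech, a marker of plasmacytoid dendritic cells, had 0.033 RPKM with vehicle and was listed at 0 with clodronate. Together these 6 genes summed to 6.13 RPKM with vehicle and 3.24 RPKM with clodronate, against 240 and 268 RPKM for Siglec1, Cd33 and Siglece together.

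Sirpa, at chr2:129418574-129457964, binds Cd47 on other cells and restrains their engulfment. It had 264 RPKM with vehicle and 321 RPKM with clodronate, a log2 ratio of 0.28, and 24.3% of the 407 genes of like level were at least as high. Cd47, the ligand, had 92.5 and 67.0 RPKM and a log2 ratio of -0.46. Sirpb1a and Sirpb1b, activating relatives of Sirpa, stood far below it with 4.65 and 3.72 RPKM and with 2.58 and 3.92 RPKM. Their sequence is close to that of Sirpa, and how reads that match several relatives were assigned is not given in the sources used here.

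Pirb, at chr7:3664106-3671984, is an inhibitory receptor for MHC class I. It had 135 RPKM with vehicle and 113 RPKM with clodronate, a log2 ratio of -0.25, and 28.5% of the 938 genes of like level were at least as low. The Pira genes, its activating relatives, are nearly identical to Pirb over most of the coding part, so that their values are uncertain. Pira6, the 1 Pira gene found, had 9.56 and 3.19 RPKM and a log2 ratio of -1.33. The related inhibitory receptor Lilrb4 had 1002 and 824 RPKM, and its close copy Gp49a had 1459 and 757 RPKM, with log2 ratios of -0.28 and -0.95. Both stood above every receptor among the 10, and reads shared between these copies leave their split uncertain. Pilra had 134 and 122 RPKM. Lilra5 was listed at 0 with vehicle and had 2.05 RPKM with clodronate. Of the 7 genes of this list that passed the filter 2 were higher and 5 lower, with a median log2 ratio of -0.24, which came to -0.0055 over 6 genes once the trends with GC content and length were removed.

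The start regions of 6 of the 10 receptors are held in the RefSeq promoter table of GRCm38.p6, a later build than that of the files. The 250 bases before the start are shown for the highest Trem gene, for both Siglecs with lower values in the clodronate library and for Pirb. They were searched on both strands for GAGGAA, the purine-rich core recognised by PU.1, a transcription factor of myeloid cells. The motif was chosen after the sequences had been seen. It was present in all 6 start regions, those of Trem1 and Treml4 included, and in 23.3% of the 32851 start regions of the table. Because of that choice, its presence in all 6 cannot be read as enrichment over this share. Start regions of Siglec1, Sirpa, Treml2 and Trem3 were not held, and all 6 receptors searched had lower values in the clodronate library. A match is a run of letters and not a site shown to be bound. Capitals mark the motif, which reads TTCCTC where it lies on the other strand, and the sequences run 5′ to 3′ along the strand of the gene.
Trem2, chr17:48346151-48346400, plus strand: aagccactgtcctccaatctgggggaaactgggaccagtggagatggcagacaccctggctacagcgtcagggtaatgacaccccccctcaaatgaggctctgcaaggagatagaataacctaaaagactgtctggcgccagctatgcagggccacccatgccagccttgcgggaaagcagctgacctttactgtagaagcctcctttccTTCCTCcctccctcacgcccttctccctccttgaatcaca
Cd33, chr7:43533172-43533421, minus strand: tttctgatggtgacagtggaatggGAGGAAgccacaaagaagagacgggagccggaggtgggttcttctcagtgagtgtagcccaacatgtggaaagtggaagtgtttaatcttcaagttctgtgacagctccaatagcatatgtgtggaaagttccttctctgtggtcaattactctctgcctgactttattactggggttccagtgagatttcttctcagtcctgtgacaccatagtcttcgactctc
Siglece, chr7:43660162-43660411, minus strand: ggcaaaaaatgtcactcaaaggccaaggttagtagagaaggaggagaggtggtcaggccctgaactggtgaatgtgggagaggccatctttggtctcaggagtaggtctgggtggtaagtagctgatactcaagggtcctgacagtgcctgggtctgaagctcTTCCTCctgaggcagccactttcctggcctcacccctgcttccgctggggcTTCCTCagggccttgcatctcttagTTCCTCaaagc
Pirb, chr7:3720383-3720632, minus strand: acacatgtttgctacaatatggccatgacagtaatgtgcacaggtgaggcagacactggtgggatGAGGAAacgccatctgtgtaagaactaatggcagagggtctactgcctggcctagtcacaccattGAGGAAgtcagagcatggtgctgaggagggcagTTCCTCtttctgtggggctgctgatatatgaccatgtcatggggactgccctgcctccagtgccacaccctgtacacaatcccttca

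Siglece and Pirb held the motif 3 times each, and Trem2 and Cd33 once each. These counts did not order the levels, since Siglece had 12.8 and 6.59 RPKM and Trem2 444 and 349 RPKM.

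Transcripts of the adaptors through which these receptors signal were present in both libraries. Tyrobp, the adaptor of the Trem receptors, had 2174 RPKM with vehicle and 1644 RPKM with clodronate, a log2 ratio of -0.40. Fcer1g, an adaptor shared with Fc receptors and the activating Pira receptors, had 2690 and 2397 RPKM, and Hcst, which signals through phosphoinositide 3-kinase, had 42.8 and 49.9 RPKM. Each of the 3 adaptors lay between the 3-fold lines, with log2 ratios from -0.40 to 0.21. Their median was -0.17, and 0.053 once the trends with GC content and length were removed. Tyrobp thus stood above the sum of the 3 Trem receptors, 528 RPKM with vehicle and 396 RPKM with clodronate.

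Of the 12 kinases and other signaling proteins 11 were higher in the clodronate library. The median log2 ratio of the 12 was 0.27, or 0.20 with the trends of GC content and length removed. Syk, the kinase that binds the phosphorylated adaptor, had 75.9 and 82.9 RPKM. Pik3cd, a catalytic subunit of phosphoinositide 3-kinase, had the highest ratio of this list, with 18.3 and 39.7 RPKM and a log2 ratio of 1.07. Plcg2, a phospholipase downstream of Trem2, had 40.5 and 62.0 RPKM. Fgr, a Src family kinase, was the 1 gene lower in the clodronate library, with 144 and 113 RPKM. None of the 12 was 3-fold higher or lower.

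The enzymes and adaptors recruited by inhibitory receptors went both ways. Ptpn6 had 99.6 and 116 RPKM, Ptpn11 18.5 and 13.7 RPKM, and Inpp5d, a lipid phosphatase, 99.6 and 114 RPKM. Dok2, an adaptor that dampens kinase signaling, had 106 and 177 RPKM and the highest log2 ratio of the 8 genes, 0.73. Of these 8 genes 6 were higher and 2 lower, with a median log2 ratio of 0.22. This median came to 0.091 once the trends with GC content and length were removed.

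Of the 10 other inhibitory myeloid receptors listed for comparison, 2 were higher and 8 lower with clodronate, and the median log2 ratio was -0.18, which became 0.0065 once the trends with GC content and length were removed. Fcgr2b, the inhibitory Fc receptor, had nearly equal values of 738 and 739 RPKM. Clec12a, a lectin receptor for uric acid crystals, had 122 and 74.3 RPKM and a log2 ratio of -0.70. Cd300a, which binds lipids of dying cells, had 26.3 and 16.5 RPKM. Cd72 went the other way with 66.1 and 122 RPKM and a log2 ratio of 0.88. None of the 10 reached 3-fold on either side.

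Among 15 genes listed as ligands of the receptors 10 passed the filter, 5 higher and 5 lower, with a median log2 ratio of -0.007, or 0.060 with the trends of GC content and length removed. Clu, a lipoprotein component bound by Trem2, had 4.52 and 1.44 RPKM. Selplg, a sialylated adhesion protein, had 87.0 and 131 RPKM. Pglyrp1, a ligand of Trem1, was listed at 0 in both libraries.

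**Figure D4:**
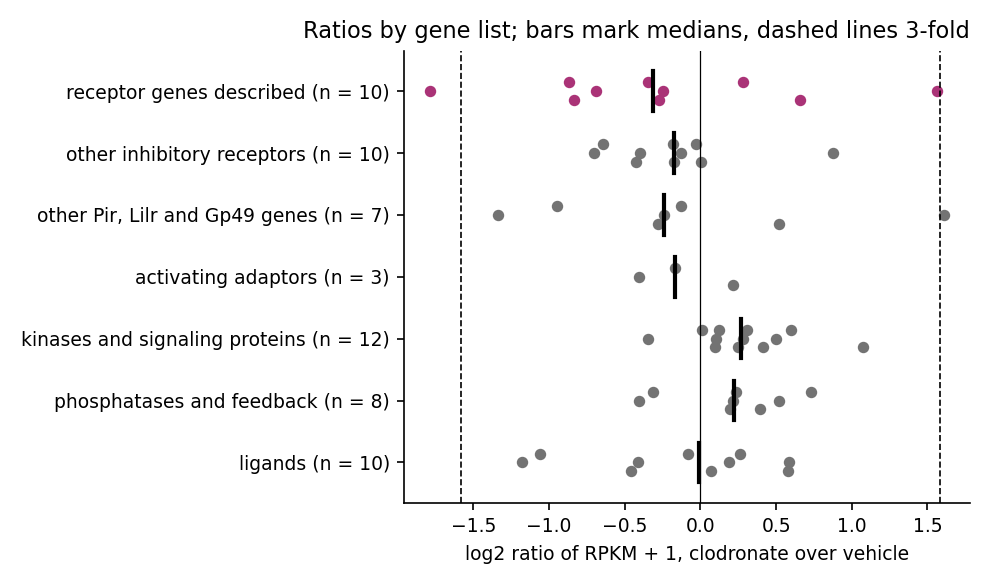
Log2 ratio of RPKM + 1, clodronate over vehicle, of each gene with a mean of at least 1 RPKM (points) in the receptor list and in 6 related lists, with bars at the medians and dashed lines at 3-fold. The receptors spread from -1.79 to 1.56 around a median of -0.31, and the 12 kinases and signaling proteins lie from -0.35 to 1.07 around 0.27.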

How the data were processed

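The authors deposited RPKM values for 23170 loci per library. Per the labels' processing notes, CASAVA 1.8.2, TopHat2 2.0.9, Bowtie 0.12.9, Cufflinks 2.2.1, Cuffdiff and the build mm9 were used (parameters, strand and the treatment of reads matching several genes are not given in the sources used here). The RPKM summed to 601579 and 596143. A gene at 0 is called listed at 0, since such a value can be a failed estimate.

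Loci of the same symbol were summed and 26 symbols turned into numbers were replaced by their accession, which left 22886 genes. Ratios used a pseudocount of 1 RPKM and a filter of a mean of at least 1 RPKM. RPKM are not counts, so no count model was used, and 1 library per condition allows no test. Genes of like level are genes kept with a mean within 2-fold. Of 204 genes in the lists 13 were not found and 3 were found under another RefSeq symbol (Emr1 for Adgre1, Siglecf for Siglec5 and 9830107B12Rik for Trem5). The rule for naming allowed the 10 receptors, 9 set signaling genes and ligands, and of each list the 3 genes with the highest mean and the 3 with the largest ratio. Further genes were named after their values were seen, as examples of values of 0 or of a list, or for their place.

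RPKM times transcript length, over loci with 1 accession and at least 2000 bases in GENCODE M21, fell in steps of 0.0776 in the vehicle and 0.0956 in the clodronate library. Of the loci under 3.5 steps, 84.8% of 257 and 87.4% of 452 lay within 10% of 1, 2 or 3 steps. The step was taken as 1 fragment. This estimate was added after seeing the data, depends on transcript length, and no interval was computed from it.

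The receptors and lists were chosen with earlier results of these data known. The steps were tested on simulated data. Python 3.11.15, numpy 2.4.6, pandas 2.3.3 and matplotlib 3.10.9 were used.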

Additional observations from a re-analysis of the deposited data

How the results depend on the processing

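Ratios were recomputed with a pseudocount of 0.1, without the filter, with a minimum mean of 5 RPKM, with centred ratios, with equal upper quartiles, with the highest locus of each symbol, at 2-fold in place of 3-fold, and with correction for GC content and transcript length in 10 bins each. No paired analysis was possible because there was 1 library per condition, and no replicate could be left out. Every receptor with a value kept its sign in every setting. Trem3 ran from -2.15 to -1.50 and Siglec1 from 1.23 to 1.58 on the log2 scale. Treml4 ran from -0.33 to -0.055, so that little of its difference was left after the correction. After the correction, the number of receptors at least 3-fold lower was 0 in place of 1. At 2-fold the number higher was 1 in place of 0, by construction. The median of the receptors lay between -0.52, over the 8 receptors above a mean of 5 RPKM, and -0.28. Each receptor has 1 locus and passes the filter, so the highest locus and no filter could not change its values. Over all genes kept, 314 were 3-fold higher and 255 lower, against 532 and 480 with a pseudocount of 0.1, 127 and 101 above a mean of 5 RPKM, and 763 and 744 at 2-fold. A change of less than 1.5-fold was taken as no move. The step of 1 fragment is estimated, so low values such as those of Treml2, Treml4 and Trem3 carry a counting error that was not computed.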

Other observations

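Genes for the synthesis, transport, attachment and removal of sialic acid, the ligand of Siglecs, were measured in the same libraries. Of 17 genes 16 passed the filter, 10 higher and 6 lower with clodronate. The median log2 ratio was 0.095, or 0.059 with the trends of GC content and length removed. St3gal1, a sialyltransferase, had the highest level with 83.8 RPKM with vehicle and 77.5 RPKM with clodronate. St6gal1, which attaches sialic acid in another linkage, had 41.6 and 35.1 RPKM, and Nans, a sialic acid synthase, 29.3 and 32.5 RPKM. Slc35a1, which carries activated sialic acid into the Golgi, had 2.69 and 5.62 RPKM. Neu3, a sialidase, had the lowest ratio with 3.47 and 0.652 RPKM.

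Of the 7 genes for the cleavage of Trem2 at the cell surface and in the membrane, all reached 10 RPKM in both libraries. The surface proteases Adam10 and Adam17 had 59.2 and 55.4 RPKM and 42.0 and 53.5 RPKM. Among the parts of gamma-secretase, Ncstn had 93.7 and 93.5 RPKM and Psenen 365 and 276 RPKM, the latter with a log2 ratio of -0.40. None of these 7 genes reached 3-fold.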
